A study of Mus musculus with 2 samples.

Results

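The transcription factor GATA1 drives red cell genes together with proteins that write, read and relay chromatin marks, and 8 of their genes were described in differentiating mouse erythroid cells. They are Brd2 and Brd3, Ep300 and Crebbp, Kat2a and Kat2b, Med1 and Kmt5a, chosen by name for what their proteins are known to do with GATA1. The rule uses no measured value, though earlier results of these data were known when the genes were chosen. All 8 were among the 43346 Ensembl genes in the tables, of which 21474 are protein-coding. RNA was measured in G1E-ER4, an immortalized mouse erythroid line derived from G1E cells, which lack Gata1. In G1E-ER4, GATA1 is restored as a fusion with the ligand-binding domain of the estrogen receptor, so that estradiol switches it on. The labels describe the cells as male, of postnatal stage and 0 day of age, erythroid, Gata1 restored and driven to differentiate with estradiol (E2), and give no dose or duration. There was 1 group with 2 polyA mRNA libraries from RNA labelled as total RNA, replicates 1 and 2, and no untreated or parental cells were compared. The labels call them biological replicates, but both cite the same sample record, so the spread between them may be technical.

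The acetyltransferases p300 (Ep300) and CBP (Crebbp) acetylate GATA1 and the histones around its sites, and the related enzymes GCN5 (Kat2a) and PCAF (Kat2b) serve in the SAGA and ATAC complexes. BRD2 and BRD3 belong to the BET family, whose paired bromodomains bind acetylated lysines, and BRD3 binds acetylated GATA1 directly. MED1 is the subunit of Mediator that contacts GATA1 and links it to RNA polymerase II, and KMT5A (also named SETD8) places the single methyl group on lysine 20 of histone H4 and acts with GATA1 in erythroid maturation.

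Depth was 68901065 estimated counts for replicate 1 and 51923116 for replicate 2. All 7 erythroid markers reached 1 TPM, a measure of transcript abundance corrected for length, in both libraries, with Gata1 at 1498 and 2430 TPM and Epor, the erythropoietin receptor gene, lowest at 133 and 176 TPM. Gata1 is restored in this line by design, so its level is not evidence of cell type. No myeloid, lymphoid or fibroblast and endothelial marker of 13 did so, and these markers summed to 0.16 TPM (replicate 1) and 0.34 TPM (replicate 2). Of 4 megakaryocyte markers only Itga2b did, at 18.2 and 29.3 TPM, while Ppbp was at 0 in both. Of protein-coding genes, 8376 (39.0%) reached 1 TPM in both libraries and are called detected here.

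All 8 genes were detected, over a wide range of levels. By gene TPM, Kmt5a and Brd2 were the most abundant, Brd3 and Kat2a came next, Ep300 and Med1 lay in the middle of the detected genes, and Crebbp and Kat2b were low. The median of their mean levels was 67.4 TPM, beside 20.5 TPM over all detected protein-coding genes. TPM divides by transcript length, which is meant to let levels be compared between genes. Gene TPM also depends on which annotated transcript models received the reads, so such comparisons can change when only coding models are counted. In bulk RNA, fewer expressing cells and less RNA per cell cannot be told apart.

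**Figure D1:**
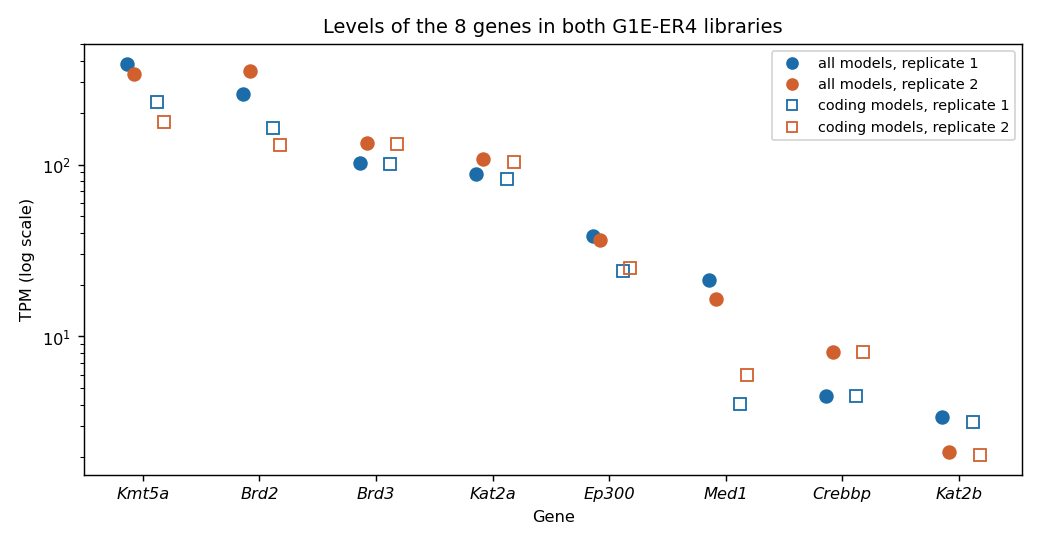
TPM of each gene in replicate 1 and replicate 2 on a log axis. Filled circles sum all transcript models of the gene and open squares sum the models annotated as protein-coding. The 2 measures lie far apart for Med1, at 21.3 and 16.4 against 4.05 and 5.97 TPM, and coincide for Crebbp.

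Brd2 (ENSMUSG00000024335, chr17:34112023-34122634, minus strand, mm10) had 258 TPM (replicate 1) and 350.3 TPM (replicate 2). Its mean of 304 ± 65.4 TPM (SD, n = 2) stood at percentile 94.6 of the detected protein-coding genes. Brd3 (ENSMUSG00000026918, chr2:27445579-27507662, minus strand) had 102 and 133 TPM, a mean of 118 ± 21.6 TPM (SD, n = 2) and percentile 85.6. Both libraries held more Brd2 than Brd3, and the values of the pair did not overlap. The testis BET gene Brdt was at 0.03 and 0.02 TPM from 4 and 3 estimated counts.

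Ep300 (ENSMUSG00000055024, chr15:81585351-81652077, plus strand) had 38.3 TPM (replicate 1) and 36.2 TPM (replicate 2), the smallest relative gap among the 8 genes. Crebbp (ENSMUSG00000022521, chr16:4081328-4213997, minus strand) had 4.51 and 8.12 TPM, the widest relative gap. Their means were 37.3 ± 1.42 TPM and 6.32 ± 2.55 TPM (SD, n = 2 each), at percentiles 63.9 and 23.9. Every Ep300 value lay above every Crebbp value.

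Kat2a (ENSMUSG00000020918, chr11:100704746-100712465, minus strand) had 87.7 TPM (replicate 1) and 107 TPM (replicate 2). Its mean was 97.55 ± 13.97 TPM (SD, n = 2), at percentile 82.8, and its values overlapped those of Brd3. Kat2b (ENSMUSG00000000708, chr17:53566861-53672720, plus strand) had 3.38 and 2.13 TPM from 860 and 415 estimated counts. It was the lowest of the 8 genes in both libraries, with a mean of 2.755 ± 0.884 TPM (SD, n = 2) at percentile 10.3.

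Med1 (ENSMUSG00000018160, chr11:98152154-98193293, minus strand) had 21.3 TPM (replicate 1) and 16.4 TPM (replicate 2), a mean of 18.9 ± 3.44 TPM (SD, n = 2) at percentile 47.8. Kmt5a (ENSMUSG00000049327, chr5:124439930-124462308, plus strand) had 386 and 335 TPM, a mean of 361 ± 36.4 TPM (SD, n = 2) at percentile 95.5. Its values overlapped those of Brd2 on gene TPM, so the order of the top pair is not fixed on that measure. On coding models Kmt5a, at 230 and 176 TPM, lay above Brd2, at 163 and 130 TPM, without overlap. From Ep300 down to Kat2b, neighbours in the order of gene levels did not overlap. On coding models the order of Med1 and Crebbp changed. Crebbp, at 4.51 and 8.12 TPM, lay above Med1, at 4.05 and 5.97 TPM, in each library, and their values overlapped.

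The library totals make counting error small for all but the lowest of these genes. Brd2 rested on 48041 and 36738 estimated counts, with exact 95% Poisson bounds of 47612 to 48473 and 36363 to 37116, while Kat2b had 803 to 919 and 376 to 457. These intervals cover counting error only.

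In an exact two-sided binomial test of replicate 2 against replicate 1 on scaled counts, which compares these libraries and not conditions, all 8 genes differed, 6 with more in replicate 2. The test called 7502 of 10863 genes (69.1%), 3769 with more in replicate 2 and 3733 with more in replicate 1. Scaling by library totals made these 3065 and 4756. The 6 include Ep300 and Med1, whose gene TPM was lower in replicate 2. Crebbp had a log2 difference of 0.94 (replicate 2 over replicate 1) and Kat2b one of -0.54. Brd3 lay at 0.51, Kat2a at 0.39, Med1 at 0.36, Brd2 at 0.13, Ep300 at 0.10 and Kmt5a at -0.16. With a coefficient of variation of 0.1 per library added to the counting error, 2007 genes (18.5%) were called and Crebbp was the only one of the 8 (adjusted p = 9.46e-05, exact test on the beta-binomial distribution). With that spread Brd3 had an adjusted p of 0.0663 and Kat2b one of 0.0866 in the exact test. The common biological coefficient of variation that edgeR estimated from the pair of libraries was larger than this added spread, at 0.2998. The median ratio of the higher to the lower TPM was 1.30 over the 8 genes and 1.26 over the detected protein-coding genes.

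Within each pair of related acetyltransferase genes, one member carried most of the transcript pool. Kat2a exceeded Kat2b 25.9-fold in replicate 1 and 50.4-fold in replicate 2, a mean log2 ratio of 5.18 ± 0.68 (SD, n = 2). Kat2a made up 96.3% and 98.1% of the summed TPM of the pair. Counting coding models alone left this ratio at 25.96-fold and 50.8-fold.

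Ep300 exceeded Crebbp 8.48-fold and 4.46-fold, a mean log2 ratio of 2.62 ± 0.65 (SD, n = 2). Over coding models the ratio was 5.35-fold and 3.09-fold. Ep300 thus stood above Crebbp in both libraries on either measure.

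Among BET genes, Brd2 exceeded Brd3 2.52-fold and 2.63-fold on gene TPM. On coding models, Brd2 was 1.63-fold and 0.987-fold of Brd3. The mean log2 ratio of Brd2 over Brd3 was 1.36 ± 0.05 on gene TPM and 0.34 ± 0.51 on coding models (SD, n = 2 each). The pair thus stood apart on gene TPM and within its spread on coding models.

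Kmt5a was compared with the enzymes that add further methyl groups at lysine 20 of histone H4. It exceeded Kmt5b 38.1-fold and 46.3-fold, but lay below Kmt5c, at 0.634-fold and 0.701-fold. Kmt5c had 610 TPM (replicate 1) and 478 TPM (replicate 2), against 10.1 and 7.23 TPM for Kmt5b. No test was made of these ratios, since the pair of libraries forms 1 group.

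**Figure D2:**
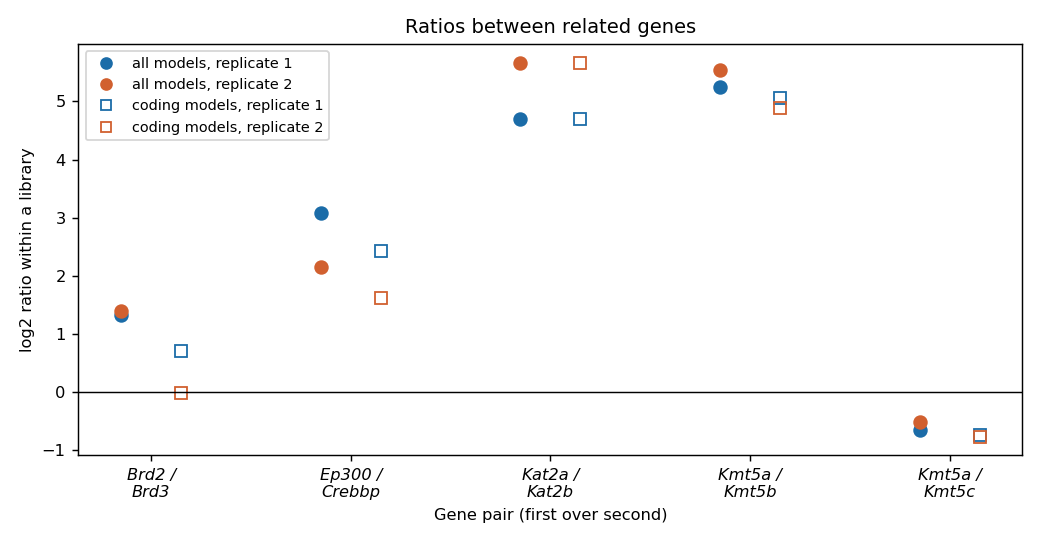
Log2 ratio of the first to the second gene within each library, from TPM of all models (filled circles) and of coding models (open squares); the line at 0 marks equal levels. Kat2a over Kat2b lies highest in replicate 2, while Brd2 over Brd3 lies at 0.70 (replicate 1) and -0.02 (replicate 2) when only coding models are counted.

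The genes differed in which transcript models received the reads. The tables hold 59 models of the 8 genes, and 19 of these carried 10% or more of the TPM of their gene in either library. Of the 19, 7 are annotated as something other than protein-coding. Coding models held all of the TPM of Crebbp, 97.8% and 98.8% of that of Brd3, 93.9% and 96.5% of that of Kat2a, and 93.8% and 95.8% of that of Kat2b. They held 63.2% and 37.0% for Brd2, 59.6% and 52.6% for Kmt5a, 63.1% and 69.2% for Ep300, and 19.0% and 36.3% for Med1. By estimated counts, in which short models weigh less, the coding shares were 86.2% and 67.2% for Brd2, 82.8% and 78.9% for Kmt5a, 83.8% and 87.1% for Ep300, and 66.1% and 84.0% for Med1. The median of the mean coding share was 80.5% over the 8 genes and 99.3% over the detected protein-coding genes. These sets are unlike: all 8 genes have more than 1 model, but only 6302 of the 8376 detected genes do. This class is a property of the annotated model and not a measure of protein: coding models of the globin gene Hba-a1 held 121 of 6746 TPM in replicate 1.

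**Figure D3:**
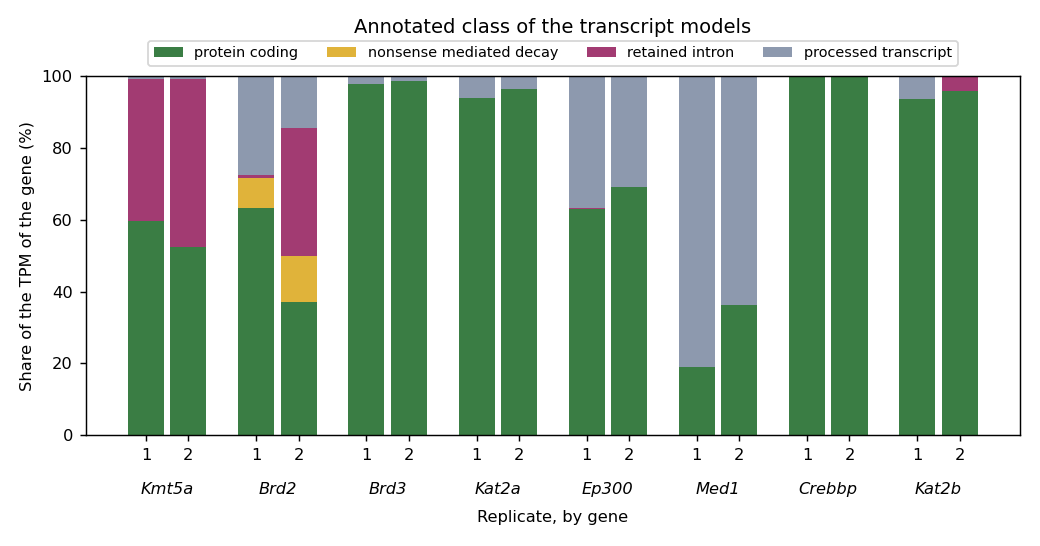
Share of the TPM of each gene, in percent, given to transcript models of 4 annotated classes in replicate 1 and replicate 2. Retained-intron models take 35.51% of Brd2 through a single model in replicate 2, and processed transcripts take most of Med1 in both libraries.

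Brd2 showed the sharpest case. A retained-intron model of 610 bases (ENSMUST00000155286, chr17:34114764-34115470) had 65 estimated counts and 2.38 TPM in replicate 1, and 2590 counts and 124 TPM in replicate 2. Its TPM was 52.3-fold higher in replicate 2, and it then carried 35.51% of the TPM of Brd2 against 0.92% in replicate 1. The 4374-base coding model (ENSMUST00000025193) had 157 and 125 TPM, so its level moved the other way. Summed over coding models, Brd2 had 163 and 129.7 TPM, and the ratio of replicate 2 to replicate 1 was 0.796, beside 1.36 on gene TPM. A short model turns few reads into many TPM: 2590 of 36738 counts in replicate 2 made up 124 of 350.3 TPM.

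The end of that model is shown because it is the stretch that tells it apart from spliced Brd2 mRNA. It is read on the minus strand of chr17:34114764-34114913, from GENCODE M21 on mm10, with the last 24 exon bases in lower case and 126 intron bases in capitals.
Brd2 intronic end: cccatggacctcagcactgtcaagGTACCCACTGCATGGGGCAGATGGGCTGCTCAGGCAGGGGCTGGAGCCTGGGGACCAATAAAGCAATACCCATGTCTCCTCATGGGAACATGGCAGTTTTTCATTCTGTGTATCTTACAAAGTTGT
The intron part holds the letters AATAAA, the common polyadenylation hexamer, 1 time, and 64 bases follow it to the end of the model. Of 21847 retained-intron models of at least 126 bases in GENCODE M21, 19.9% hold this hexamer in their last 126 bases. The genes that overlap Brd2 on the opposite strand, H2-DMa (chr17:34119541-34139101) and CR974462.3 (chr17:34120568-34121158), cover 0 bases of this model. H2-DMa had 13 and 22 estimated counts, and CR974462.3 was not analysed here. With the strand setting not given in the sources used here, reads of overlapping genes cannot be told apart by strand.

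A second Brd2 difference lies in a model annotated for nonsense-mediated decay (ENSMUST00000154232), a pathway that destroys mRNA with early stop codons. This model had 21.5 TPM (replicate 1) and 45.5 TPM (replicate 2). Among models that either include or skip the exon, this model, the only one with it, held 11.7% and 25.96% of the TPM. These are shares of the whole 4520-base model, not of reads over the exon. It also starts at another place than the main coding model, so this exon is not its only difference. A further short processed transcript of 366 bases (ENSMUST00000179687) had 67.8 and 48.0 TPM from 846 and 473 counts. The exon is printed whole in capitals, from the minus strand of chr17:34116598-34116689.
Brd2 extra exon: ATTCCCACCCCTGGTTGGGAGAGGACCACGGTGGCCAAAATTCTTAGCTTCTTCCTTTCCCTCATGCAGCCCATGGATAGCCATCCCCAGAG

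Kmt5a carried a retained-intron model at nearly equal levels in both libraries. The 804-base model (ENSMUST00000125588) had 148 TPM (replicate 1) and 152 TPM (replicate 2), and was the leading model in replicate 2 with 45.45% of the TPM. By counts it was not: it had 5757 and 4498 estimated counts, beside 24594 and 15256 for the main coding model (ENSMUST00000059580), and its mean share was 18.04% of counts against 41.9% of TPM. It starts inside an intron of the main coding model and then enters the next exon. Its first 115 bases, in capitals, are intronic, followed by 24 exon bases in lower case, from the plus strand of chr5:124451171-124451309.
Kmt5a intronic end: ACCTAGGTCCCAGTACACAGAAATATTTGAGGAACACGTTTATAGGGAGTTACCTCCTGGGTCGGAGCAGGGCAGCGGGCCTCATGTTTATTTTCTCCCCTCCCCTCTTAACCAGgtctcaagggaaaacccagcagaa

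The coding models of Kmt5a began at different starts. The model from the upstream start (ENSMUST00000059580) had 158 and 131 TPM, and the model from the downstream start (ENSMUST00000100709) had 72.1 and 45.2 TPM. The model from the downstream start thus held 31.3% of the TPM of coding models in replicate 1 and 25.7% in replicate 2. It is shorter, at 1348 against 2739 bases, and its share of counts was smaller. It had 5164 and 2441 estimated counts, beside 24594 and 15256 for the model from the upstream start. Both promoters are shown since both models were given reads, each as 300 bases from RefSeq on GRCm38.p6, plus strand, with 250 bases before the start. Capitals mark CCAAT (or ATTGG on the other strand) and GGGCGG (or CCGCCC), known as the letters of the CCAAT box and the GC box.
Kmt5a upstream promoter, chr5:124439680-124439979: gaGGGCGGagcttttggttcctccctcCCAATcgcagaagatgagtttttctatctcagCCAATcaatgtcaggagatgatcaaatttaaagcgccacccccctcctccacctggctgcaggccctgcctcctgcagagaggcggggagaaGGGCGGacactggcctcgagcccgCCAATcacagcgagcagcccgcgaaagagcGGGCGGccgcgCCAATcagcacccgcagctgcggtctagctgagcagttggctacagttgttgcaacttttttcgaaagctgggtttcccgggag
Kmt5a downstream promoter, chr5:124445249-124445548: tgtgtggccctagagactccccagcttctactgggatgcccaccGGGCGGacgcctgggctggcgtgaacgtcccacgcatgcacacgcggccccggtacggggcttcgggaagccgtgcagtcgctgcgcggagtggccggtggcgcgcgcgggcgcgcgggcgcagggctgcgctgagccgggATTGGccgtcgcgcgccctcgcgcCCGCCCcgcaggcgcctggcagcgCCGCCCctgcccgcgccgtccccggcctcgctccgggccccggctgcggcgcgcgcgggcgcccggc
The upstream promoter holds 4 CCAAT and 3 GGGCGG matches, and the downstream promoter 1 and 3, counted on both strands. Of 32851 mouse promoters of the same length, 37.4% hold CCAAT and 35.7% hold GGGCGG. The core GATA letters GATAA (or TTATC) were in none of the 13 RefSeq promoters of the 8 genes, and in 25.4% of all promoters. CACGTG, an E-box, was also in none of the 13, against 7.15% of all. The G and C content of the 13 ran from 47.0% to 82.0%, and the shares over all promoters were not matched for it. For Brd3, Ep300, Crebbp and Med1, the only promoter among the 13 was not at the start of the most abundant coding model. No printed matches overlapped, and a match or its absence in this window says nothing of binding.

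Med1 had most of its TPM outside coding models. The full 8024-base coding model (ENSMUST00000107545) had 3.62 TPM (replicate 1) and 5.59 TPM (replicate 2). A 1372-base processed transcript (ENSMUST00000129557) had 9.72 and 4.98 TPM, and a 609-base one (ENSMUST00000147933) had 7.54 and 5.49 TPM. Coding TPM of Med1 was 1.47-fold in replicate 2 of that in replicate 1, while its gene TPM was 0.771-fold.

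Ep300 had a large share of its TPM in a processed transcript of 2994 bases (ENSMUST00000185375) at its 5′ end, which runs from the first exon into the first intron. This model had 14.1 TPM (replicate 1) and 11.2 TPM (replicate 2), beside 24.02 and 25.01 TPM for the coding model (ENSMUST00000068387). Coding TPM was 1.04-fold in replicate 2 of that in replicate 1, and gene TPM 0.947-fold. Brd2, Med1 and Ep300 were therefore the 3 of 8 genes whose gene and coding TPM differed in opposite directions between the libraries, as they did in 927 of 8376 detected genes (11.1%). Only genes with more than 1 model can differ in this way. All 8 genes have more than 1, but only 6302 of the 8376 do, so the 11.1% understates the fitting background. Med1 and Kmt5a were the 2 of 8 whose leading model changed with the library, as it did in 1058 of 6302 detected genes with more than 1 model (16.8%). That holds for shares of TPM: by counts the leader was the same in both libraries, ENSMUST00000107545 for Med1 (1715 and 1982) and ENSMUST00000059580 for Kmt5a.

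**Figure D4:**
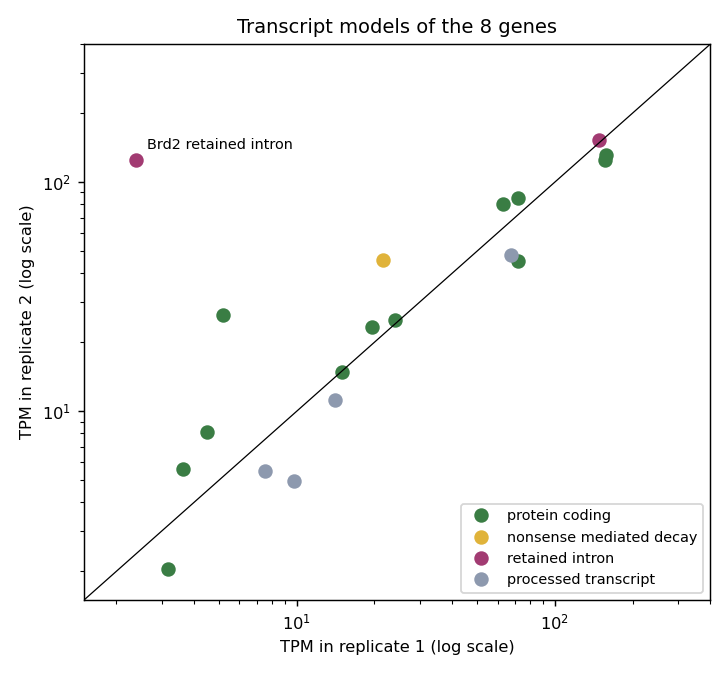
TPM in replicate 1 against TPM in replicate 2, both on log axes, for the 19 transcript models with 10% or more of the TPM of their gene, coloured by annotated class; the line marks equal values. The Brd2 retained-intron model, at 2.38 and 124 TPM, lies farthest from the line.

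In Brd3 and Kat2a the abundant models were all coding. The leading Brd3 model (ENSMUST00000138693, 2221 bases) had 72.1 TPM (replicate 1) and 84.99 TPM (replicate 2), and the longer model ENSMUST00000077737 had 15.02 and 14.8 TPM. A further coding model (ENSMUST00000164296) had 5.17 and 26.3 TPM, a 5.08-fold higher value in replicate 2. Models with a 51-base coding exon at chr2:27453400-27453450, minus strand, held 77.5% and 66.6% of the TPM of models that include or skip it. All of the TPM with the exon was that of the leading model, which had 8957 and 7928 estimated counts. The models ENSMUST00000077737 and ENSMUST00000164296, which skip it, had 4627 and 3420 counts and 819 and 3124 counts. The leading model is also shorter than ENSMUST00000077737, at 2221 against 5272 bases, so this exon is not its only difference. The exon is printed whole in capitals.
Brd3 extra exon: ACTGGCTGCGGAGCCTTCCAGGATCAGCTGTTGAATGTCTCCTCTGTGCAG

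The main Kat2a models differ by 3 bases where the exons on either side of an intron at chr11:100708965-100709093 (minus strand, with 18 bases of each exon) are joined. The shorter form (ENSMUST00000006973) had 62.8 and 80.2 TPM, and the longer form (ENSMUST00000103118) 19.5 and 23.4 TPM. The longer form held 23.7% of the TPM of these coding models in replicate 1 and 22.6% in replicate 2. In the spliced sequences the 3 added bases are in capitals.
Kat2a shorter form: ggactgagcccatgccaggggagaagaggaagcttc
Kat2a longer form: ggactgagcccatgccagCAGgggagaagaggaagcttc
Crebbp was given to 1 model of 10230 bases (ENSMUST00000023165), and Kat2b mostly to ENSMUST00000000724, with 93.79% and 95.90% of its TPM.

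Sequence shared with other genes was searched for. Kat2b shared the largest part of its sequence, with 14.6% of its 31-base words found in another gene; its pseudogene Kat2b-ps, which shares 711 of them, had 2 and 0 estimated counts. Brd2 shared 8.60%, Kmt5a 3.27%, Crebbp 1.51%, Med1 1.10%, Ep300 0.803% and Brd3 0.0671%, and Kat2a shared none. CR974462.3 shares most with Brd2.

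The partners of these proteins were described from lists, with ranks and medians of gene TPM. In the SAGA list, which holds Kat2a and Kat2b, 21 of 22 genes were detected (median 16.1 TPM). Taf10, a shared subunit of SAGA and TFIID, was highest at 551 TPM (replicate 1) and 391 TPM (replicate 2), ahead of Sgf29, a reader of methylated histone H3, at 69.2 and 182 TPM, and Sf3b5 at 109 and 126 TPM. On coding models Taf10 had 3.93 and 1.82 TPM and Sgf29 57.8 and 70.7 TPM, so Taf10 was highest on gene TPM alone. Taf9b was lowest at 0.47 and 0.25 TPM. In the ATAC list, 11 of 11 were detected (median 19.0 TPM), led by Wdr5 at 170.1 and 139 TPM, with Tada2a lowest at 2.16 and 1.72 TPM. On coding models Wdr5 had 19.9 and 22.6 TPM, below Kat2a and Sgf29. Kat2a ranked 4 of 22 in the first list and 3 of 11 in the second.

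Of 10 partners of CBP and p300, 9 were detected (median 48.0 TPM). Cited4 and Cited2, which bind the CH1 domain of these enzymes, had 895 and 707 TPM and 186 and 142 TPM. Carm1, an arginine methyltransferase that acts with them, had 152 and 137 TPM, and Cited1 had 0 and 0.13 TPM. All 10 other acetyltransferases were detected with a median of 32.3 TPM. The N-terminal acetyltransferase genes Naa10 at 199 and 301 TPM, Naa40 at 69.2 and 52.9 TPM and Naa50 at 63.5 and 48.6 TPM led them, and Hat1 was lowest at 4.16 and 2.66 TPM.

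Of 26 head, middle and tail Mediator genes, 25 were detected (median 30.6 TPM). Med1 ranked 17 of 26, below Med25 at 644 TPM (replicate 1) and 521 TPM (replicate 2), Med7 at 280.0 and 200.4 TPM and Med24 at 103 and 80.0 TPM. On coding models Med7 had 93.1 and 46.2 TPM, Med24 39.8 and 54.5 TPM and Med1 4.05 and 5.97 TPM. The rank of Med1 thus holds for gene TPM alone. Med18, for one, ranked below it there and lay above it on coding models, at 9.21 and 7.40 TPM. Med31 was lowest, at 0.44 and 0.64 TPM. The Mediator kinase module, which binds the core reversibly, had 5 of 7 genes detected and a median of 4.05 TPM. Med12 had 36.6 and 82.9 TPM, Cdk8 45.7 and 34.1 TPM, Med13l 4.31 and 9.73 TPM and Ccnc 0.52 and 1.91 TPM, while Med12l was listed at 0 in both. On coding models Med12 had 5.92 and 7.56 TPM, Cdk8 0.64 and 1.57 TPM and Ccnc 0.39 and 0.36 TPM.

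P-TEFb, the kinase that BET proteins help to bring to paused polymerase, and its regulators were all detected, 11 of 11, with a median of 41.9 TPM. Its kinase gene Cdk9 had 76.7 TPM (replicate 1) and 133 TPM (replicate 2), while the cyclin gene Ccnt1 was lowest at 3.50 and 2.64 TPM (0.97 and 1.07 TPM on coding models). Mepce, which caps the inhibitory 7SK RNA, had 86.4 and 91.7 TPM, and Aff1 had 59.1 and 55.4 TPM. Other bromodomain genes were detected in 21 of 21 cases, with a median of 21.7 TPM. Trim28 had 312 and 379 TPM, Brd7 404 and 284 TPM, Bptf 155 and 128 TPM, and Brwd3 was lowest at 1.17 and 1.09 TPM. On coding models Trim28 had 132 and 141 TPM, Brd7 13.7 and 24.5 TPM, Bptf 151 and 122 TPM and Brwd3 0.61 and 0.28 TPM.

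Of 7 genes for H4 lysine 20 methylation and its readers, 6 were detected (median 16.3 TPM). Kmt5c and Kmt5a led the list, far above Trp53bp1, a reader of the mark, at 19.4 and 21.5 TPM, and L3mbtl1 had 0.06 TPM and 0. On coding models Kmt5c had 384 and 299 TPM and Trp53bp1 0.49 and 1.36 TPM. The ubiquitin ligase parts that degrade KMT5A in S phase were detected in 6 of 6 cases, with a median of 14.5 TPM. Cul4a had 98.2 and 61.8 TPM, Dtl, which recognises KMT5A, 13.8 and 15.4 TPM, and Cul4b 10 and 7.69 TPM. On coding models Dtl had 3.71 and 2.62 TPM. Pcna, on which that recognition occurs, had 21.1 TPM (replicate 1) and 79.0 TPM (replicate 2).

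Deacetylases remove the marks that the acetyltransferases write, and 16 of 18 were detected (median 20.1 TPM). Sirt2 had 156 and 164 TPM, Hdac7 177 and 131 TPM and Sirt7 169 and 109 TPM. On coding models Sirt2 had 51.2 and 48.4 TPM, Hdac7 80.5 and 65.8 TPM and Sirt7 142 and 90.6 TPM. Hdac11 had 1.07 and 0.97 TPM, and Hdac9 was listed at 0.

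**Figure D5:**
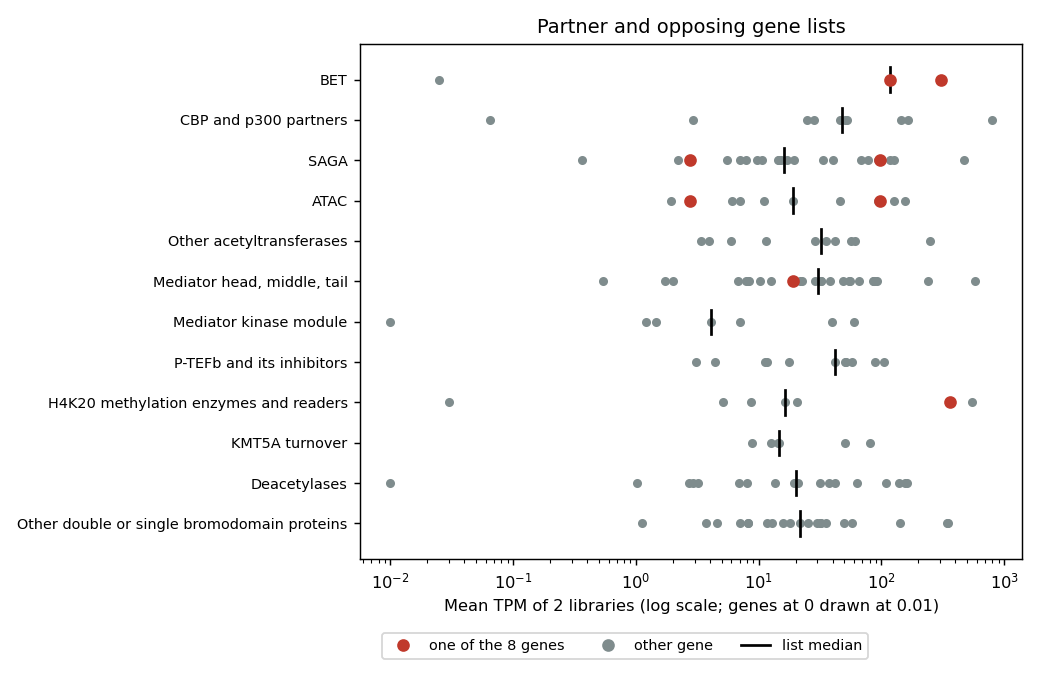
Mean TPM of the 2 libraries on a log axis for every gene of the 12 lists; red points are among the 8 genes, black bars are list medians, and genes at 0 are drawn at 0.01. Kmt5a at 361 TPM and Brd2 at 304 TPM lie at the high end of their lists, and Kat2b at 2.755 TPM near the low end of SAGA.

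By TPM in replicate 1 and replicate 2, the protein-coding gene nearest to each of the 8 was Ndufv1 for Brd2, Rpn2 for Brd3, Clk3 for Ep300, Arid3b for Crebbp, B9d2 for Kat2a, Slc27a3 for Kat2b, Necap1 for Med1 and Eif4h for Kmt5a. The distances on the log2 scale ran from 0.01 for Eif4h to 0.08 for Ndufv1. Over 2 libraries of 1 group, nearness means a like level and no more.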

How the data were processed

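Paired-end polyA RNA-seq tables of 2 libraries were used. Expected counts (estimated counts that need not be whole), TPM and the isoform percent of the gene TPM are the authors' values, per the file headers. The build is mm10 with GENCODE M4, per the labels and readme files; aligner, quantifier and strand setting were not given in the sources used here. Names, classes, coordinates and transcript sequences came from GENCODE M21, which holds all 59 models of the 8 genes, 49 at the same length; promoters came from RefSeq (GRCm38.p6).

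The members and gene lists were chosen with earlier results of these data known. Named were all 8 genes, the 3 highest and the lowest of each list, list genes under 1 TPM, models at 10% or more of their gene and the nearest gene by log2 TPM. Shares of genes whose leading model or direction differed, and the sequence features shown, were chosen after values were seen. Some list genes are not reported here.

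Counts were rounded and scaled by TMM (edgeR 4.0.16, R 4.3.3), then tested by an exact two-sided binomial test (scipy 1.17.1) over 10863 genes averaging 10 counts or more, Benjamini-Hochberg threshold 0.05. It compares libraries on counting error, not conditions; edgeR gave a common biological coefficient of variation of 0.2998. Totals were 68901065 and 51923116 counts. The test was tested on simulated data that held counting error alone, as the test assumes. That cannot show how it behaves with the wider spread of these libraries. DESeq2 1.42.0 size factors, library totals, other filters, an added spread, posterior mean TPM, coding models, CPM, pseudocounts, other TPM minimums and single libraries were alternatives.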

Additional observations from a re-analysis of the deposited data

How the results depend on the processing

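Of 186 alternative values, 154 kept their direction and their side of the threshold or moved by less than the spread, 7 lost their call, 24 moved and 1 reversed. Counting coding models alone gave mean levels of 146 TPM for Brd2, 24.6 for Ep300, 5.01 for Med1 and 203 for Kmt5a. It gave log2 ratios of 0.34 for Brd2 over Brd3, 4.97 for Kmt5a over Kmt5b and -0.75 for Kmt5a over Kmt5c. CPM values, which do not divide by length, gave 1.48 for Brd2 over Brd3 and 4.74 for Kmt5a over Kmt5b. Scaling by library totals turned the difference of Ep300 between the libraries to -0.0095 (adjusted p = 0.657, exact binomial test), beside 0.10. An added coefficient of variation of 0.1 left 2007 genes called, beside 7502, and ended the call of 7 of the 8 genes. At a minimum of 5 TPM, 2 Mediator kinase module genes were detected in both libraries, beside 5. Leaving out a library gives the value of the other, as printed for each gene. Such a value always lies within the spread around the mean of 2 libraries. The 21 values without replicate 1 and the 21 without replicate 2 could therefore only count among the 154. The cause of these shifts was not tested, beyond the models and lengths each setting leaves out. No paired analysis was possible because both libraries belong to 1 group. Shares made from estimated counts moved 11 of 16 model shares, among them the leading models of Kmt5a to 18.04%, Med1 to 18.8% and Brd2 to 73.8%. Brdt rests on 4 and 3 counts; Kat2b rests on 860 and 415.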
